A study of Homo sapiens with 15 samples.

Results

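The DNA replication and nucleotide synthesis genes described here are 52 genes chosen by name, from the factors that license and fire replication origins to the enzymes that copy DNA and make deoxynucleotides. Each matched 1 row of a table of counts per gene by its Ensembl identifier, and they were 52 of 60670 genes in all. RNA was sequenced from HT-1080, an established human fibrosarcoma cell line, in 5 groups of 3 libraries. The study's title concerns the action of GNF-7, an inhibitor of kinases, on senescent cells through the kinase GCN2.

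The first group was cycling HT-1080 cells given the vehicle DMSO, with the time label 6 h. The other groups were senescent HT-1080 cells, in which a dominant negative mutant of the telomere protein TRF2 had been expressed for 6 days to uncap telomeres. Senescent cells were given DMSO for 6 h, 1 uM GNF-7 for 6 h, DMSO for 24 h or 1 uM GNF-7 for 24 h. All were grown in serum free of tetracycline at low oxygen. Whether the cycling cells carry the TRF2 construct, and how it is driven, is not given in the sources used here. No cycling cells with GNF-7 or at 24 h were analysed here. The titles number the libraries of a group as biological replicates without saying what separates them, so the p-values measure the spread between these libraries.

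Totals ranged from 25991007 to 32323393 counts per library, and the 52 genes had between 6 and 13843 counts in a library. TERF2, which encodes TRF2, was at 55.7, 56.6 and 62.4 CPM (counts scaled to library size) in the cycling libraries. In the senescent vehicle libraries at 6 h it was at 278, 293 and 291 CPM, or 8395, 9287 and 8379 counts. TERF2 was not constant over the senescent groups, with 6547, 6633 and 7128 counts with GNF-7 at 6 h. At 24 h it had 6960, 6009 and 5840 counts in vehicle and 3842, 4260 and 3915 with GNF-7. The part of this in the results was not tested. A count of TERF2 may come from the mutant or the cell's own transcript. Mesenchymal markers were abundant, VIM having group means from 3474 to 4460.3 CPM. Of 8 markers of other cell types, 7 were too low to be tested, and the 8 summed to between 0.426 and 1.39 CPM in a library. CD3E and CDH1 were at 0 in each cycling library. Of the 8 markers of the line itself 8 were called lower at 24 h of GNF-7, with a median log2 fold change of -0.66 that is close to the median of the 52 genes, and 5 were lower and 3 higher in senescence (median -0.32). Of all genes tested 29.7% were called lower at 24 h of GNF-7 and 34.4% in senescence. The part of a broader change in the result at 24 h was not tested. The mean share of counts in mitochondrial genes was 4.32% in cycling cells, 11.7% and 16.9% in senescent vehicle cells at 6 h and 24 h, and 14.1% and 23.3% after GNF-7. This share moved with every comparison below, and its part in the results was not tested. With mitochondrial genes left out of the scaling, the numbers of these genes called lower were 52, 32 and 48 in the comparisons of senescence, GNF-7 at 6 h and GNF-7 at 24 h, as with them. The genes behind the equal number at 6 h were not the same. GMNN lost its call (log2 fold change -0.186, edgeR adjusted p 0.0564) and CDT1 gained one (-0.248, edgeR adjusted p 0.0493).

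DNA replication starts in G1 phase, when ORC, CDC6 and CDT1 load the MCM2 to MCM7 helicase at origins. In S phase the kinase of CDC7 and DBF4 and the recruitment of CDC45, GINS and MCM10 turn that helicase on, and polymerases, the PCNA clamp and its loader copy the strands from deoxynucleotides that ribonucleotide reductase supplies. Many of these genes are transcribed as cells enter S phase under the E2F factors, which the RB family restrains in cells that have left the cycle, as senescent cells have. In bulk libraries, fewer cells in S phase and less RNA per cell cannot be told apart.

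Promoter sequences are shown because the 52 genes fell together in senescence and less evenly under GNF-7. With GNF-7 3 genes were higher and 17 not called at 6 h, and 1 was higher and 3 were not called at 24 h. The sequences come from the RefSeq promoter table (GRCh38.p14), whose windows reach from 250 bases before to 50 after a start. Of the 52 genes 45 matched it. WDR76, MCM4, RPA3, RPA2, MCM5, GINS4 and POLD3 did not. Gene coordinates given further on are those of GENCODE, whose starts can differ from the RefSeq starts. The E2F words searched were TTTGGCGC, TTTCGCGC, TTTCCCGC and TTTGCCGC on both strands, of which TTTGGCGC and TTTCGCGC can overlap on opposite strands. An E2F word was in 23 of the 45 genes (51.1%), against 1090 of the 27305 genes of the table (3.99%). The following stretches hold E2F words, or their reverse complements, in capitals, and in MCM6 also the reverse complement of CCAAT. MCM6 and GINS2 were among the genes lowest in senescence, DTL was the lowest after 24 h of GNF-7, and TIPIN and LIG1 were not called under GNF-7 at either time.
MCM6 (chr2:135876502-135876615, minus strand): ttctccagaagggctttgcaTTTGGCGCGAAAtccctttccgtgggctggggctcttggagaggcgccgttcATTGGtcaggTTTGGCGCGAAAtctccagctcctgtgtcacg
CDC7 (chr1:91501024-91501105, plus strand): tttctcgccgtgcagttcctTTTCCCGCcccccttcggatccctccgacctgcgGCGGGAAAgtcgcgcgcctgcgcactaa
CDT1 (chr16:88803734-88803781, plus strand): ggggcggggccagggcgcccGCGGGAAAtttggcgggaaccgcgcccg
GINS2 (chr16:85688958-85689005, minus strand): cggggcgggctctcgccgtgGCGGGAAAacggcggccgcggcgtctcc
DTL (chr1:212035720-212035747, plus strand): atcagagagcgtgacgtcagTTTGGCGC
TIPIN (chr15:66356720-66356771, minus strand): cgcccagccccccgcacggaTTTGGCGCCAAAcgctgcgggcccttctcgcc
LIG1 (chr19:48170431-48170478, minus strand): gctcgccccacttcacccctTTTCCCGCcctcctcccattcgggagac

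The word CCAAT, in either direction, was in 28 of the 45 genes (62.2%) and in 39.7% of all genes of the table. RRM2, MCM10 and RFC1 held it without an E2F word in these windows. RRM2 and MCM10 were among the 3 genes lowest after 24 h of GNF-7, and RFC1 was the highest. Capitals mark CCAAT in their stretches.
RRM2 (chr2:10122596-10122697, plus strand): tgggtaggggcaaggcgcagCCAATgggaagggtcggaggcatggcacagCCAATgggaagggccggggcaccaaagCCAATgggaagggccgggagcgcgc
MCM10 (chr10:13161420-13161477, plus strand): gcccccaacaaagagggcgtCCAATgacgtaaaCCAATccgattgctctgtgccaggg
RFC1 (chr4:39366526-39366570, minus strand): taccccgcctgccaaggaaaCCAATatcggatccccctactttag

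The words TTTGAA and TTCGAA, known from the CHR element of mitotic promoters, were in 3 of the 45 genes (6.67%) and in 19.5% of all genes of the table. Genes with and without an E2F word had like medians in senescence and at 24 h of GNF-7. The median log2 fold change in senescence was -2.24 for the 23 genes with the word and -2.13 for the 22 without. After 24 h of GNF-7 the medians were -0.72 and -0.69, and after 6 h they were -0.28 and -0.20. For CCAAT the medians in senescence were -2.28 for the 28 genes with the word and -1.92 for the 17 without. With GNF-7 these were -0.19 and -0.28 at 6 h and -0.73 and -0.67 at 24 h. The differences between such medians were not tested. A match is a description of the letters in a window, and no binding was measured.

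In senescent cells each of the 52 genes was lower than in cycling cells. A gene was called when edgeR's quasi-likelihood test gave a Benjamini-Hochberg adjusted p under 0.05 over the 18563 genes tested, and 52 of 52 were called lower where 34.4% of all genes tested were. At least 2-fold lower were 50 of the 52, against 7.56% of all genes, and in 52 the libraries of the groups did not overlap, against 35.4%. The median log2 fold change of the 52 was -2.13, beside 0.06 for all genes. Expressed as a share of the cycling mean, the median gene was at 22.8% in senescent vehicle cells at 6 h, from POLE2 at 10.0% to RFC1 at 50.7%.

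GNF-7 for 6 h left a smaller and less even change in senescent cells. Of the 52 genes 32 were called lower, where 21.4% of all genes were, and 3 were called higher (MCM6, RFC1 and MCM7), where 17.9% were. None was lower by 2-fold or more, against 0.566% of all genes, and the median log2 fold change was -0.24, beside 0.0073 for all genes. Calls of GMNN, POLD2, POLD3, POLE2, RPA1, MCM8 and WDHD1 at 6 h were lost in at least 1 alternative. GMNN lost its call with RLE, total counts, TMM without mitochondrial genes, the filter at 5 CPM, DESeq2 and only the groups compared. POLD2 lost its call with RLE, total counts, that filter, DESeq2 and only the groups compared. With DESeq2 and with only the groups compared POLD3 and POLE2 were lost, and with that filter POLD3 and RPA1. Without DMSO 6 h replicate 1 GMNN, POLD2 and POLE2 were lost (-0.13, -0.09 and -0.58), without replicate 2 POLD3, POLE2 and WDHD1 (-0.17, -0.53 and -0.25), and without replicate 3 GMNN, POLD2, RPA1 and MCM8 (-0.16, -0.13, -0.12 and -0.21). Without GNF-7 6 h replicate 1 GMNN, POLD3 and MCM8 were lost (-0.16, -0.24 and -0.24), and without replicate 2 GMNN, POLD2, RPA1 and WDHD1 (-0.21, -0.066, -0.089 and -0.21). Without GNF-7 6 h replicate 3 GMNN, POLD3, POLE2, MCM8 and WDHD1 were lost (-0.20, -0.21, -0.47, -0.28 and -0.22). CDT1 was called lower when DMSO 6 h replicate 3, or GNF-7 6 h replicate 2 or 3, was left out (-0.32, -0.30 and -0.36), RPA3 without DMSO 6 h replicate 1 and GNF-7 6 h replicate 3 (-0.31 and -0.29), TK1 without the last of these (-0.19), and LIG1 higher without GNF-7 6 h replicate 1 (0.15).

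GNF-7 for 24 h lowered most of them further. It left 48 of 52 called lower (29.7% of all genes), 1 called higher, RFC1 (29.3% of all genes), and 3 not called (LIG1, RFC4 and TIPIN). At least 2-fold lower were 18 of the 52, against 3.92% of all genes. The median log2 fold change was -0.67, beside 0.038 for all genes. As a share of the cycling mean the median gene stood at 21.9% in vehicle and at 14.1% with GNF-7 at 24 h, where 18 of the 52 genes were under 10%. The summed level of the 52 genes was 6402 ± 92.8 CPM (SD, n = 3) in the cycling group. In senescent cells at 6 h it was 1591 ± 11.9 CPM in vehicle and 1427 ± 15.9 CPM with GNF-7. The sum at 24 h was 1567 ± 13.3 CPM in vehicle and 1031 ± 17.9 CPM with GNF-7.

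**Figure D1:**
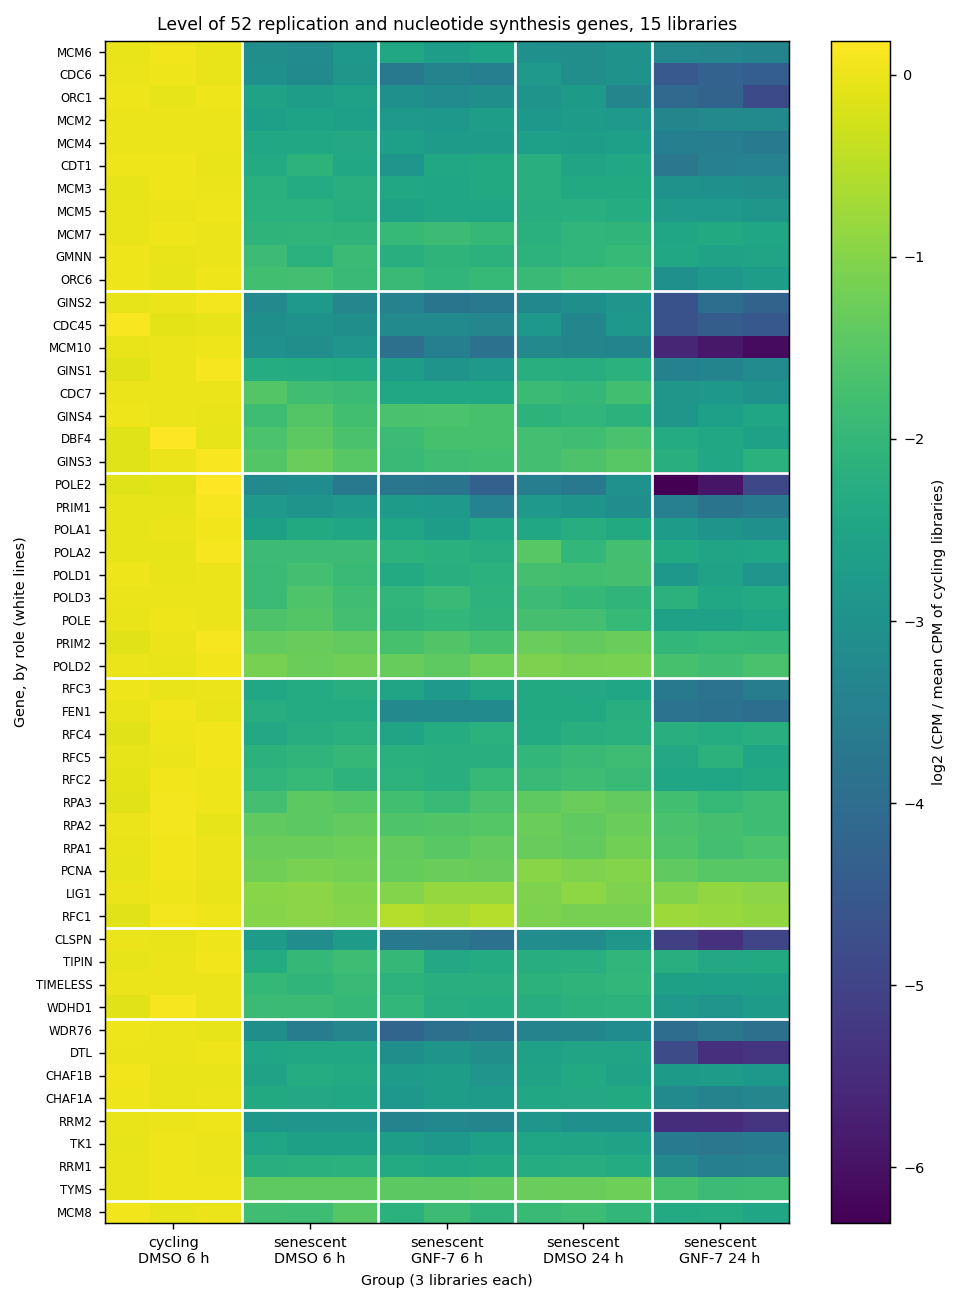
Level of each of the 52 genes (rows, by role, white lines between roles) in each of the 15 libraries (columns, by group) as log2 of CPM over the mean of the cycling libraries. The cycling libraries lie near 0, the senescent libraries are below them in each row, and the darkest cells are those of MCM10, POLE2, RRM2, DTL and CLSPN after 24 h of GNF-7.

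Time in vehicle alone moved few of them. Between 6 h and 24 h in DMSO 8 of the 52 genes were called lower (ORC1, MCM2, MCM4, GINS4, MCM10, POLE, RFC1 and WDHD1), where 9.29% of all genes were. PCNA and TYMS were called higher, where 9.26% were, and 42 were not called. Of these 10 calls 8 were lost in at least 1 alternative, all but those of MCM2 and MCM4. Without DMSO 6 h replicate 1 the calls of ORC1, POLE, RFC1 and WDHD1 were lost (-0.35, -0.17, -0.14 and -0.24), without replicate 2 those of GINS4, POLE, RFC1 and WDHD1 (-0.27, -0.11, -0.12 and -0.23), and without replicate 3 those of ORC1, MCM10 and RFC1 (-0.37, -0.25 and -0.15). Without DMSO 24 h replicate 1 ORC1, WDHD1 and PCNA were lost (-0.40, -0.20 and 0.13), without replicate 2 RFC1 and WDHD1 (-0.13 and -0.27), and without replicate 3 ORC1, POLE, RFC1 and WDHD1 (-0.24, -0.10, -0.13 and -0.29). PCNA and TYMS were lost with total counts (0.042 and 0.035). Scaling by total counts alone turned these numbers into 24 lower and 0 higher, and the share of all called genes that were higher from 49.93% to 12.49%. The median log2 difference of the 52 genes was -0.07, beside 0.0088 for all genes.

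Origin licensing factors fell in senescence in 11 of 11 cases, and 11 of 11 were lower after 24 h of GNF-7, 4 of them at least 2-fold. At 6 h of GNF-7 7 were lower, 2 higher and 2 not called. The shares of all genes tested that were called lower were 34.4% in senescence, 21.4% at 6 h and 29.7% at 24 h of GNF-7. Called higher were 17.9% at 6 h and 29.3% at 24 h of GNF-7. These shares stand beside the counts of each group and list below. MCM6, a subunit of the replicative helicase (ENSG00000076003, GRCh38 chr2:135839626-135876426), was at 168, 177 and 168 CPM in the cycling libraries and 19.9, 19.1 and 23.6 CPM in senescent vehicle at 6 h. That was the lowest fold change of the group in senescence (log2 fold change -3.04, SE 0.061, edgeR adjusted p 5.52e-46). With GNF-7 at 6 h MCM6 was at 31.6, 26.5 and 29.6 CPM, above each of its vehicle libraries (log2 fold change 0.49, SE 0.066, edgeR adjusted p 7.58e-09). By 24 h it was at 20.6, 19.9 and 21.4 CPM in vehicle and 18.1, 17.3 and 16.4 CPM with GNF-7, now below each vehicle library (log2 fold change -0.26, SE 0.071, edgeR adjusted p 0.00135). The helicase subunit MCM7 had the same order of calls at a higher level. It was at 440.4, 459 and 452 CPM in cycling libraries, 106, 109 and 106 in senescent vehicle at 6 h and 116, 124 and 114 with GNF-7 at 6 h. At 24 h it was at 98.6, 109 and 109 CPM in vehicle and 81.0, 87.9 and 80.6 with GNF-7. The log2 fold changes of MCM7 were -2.07 in senescence, 0.14 at 6 h and -0.34 at 24 h of GNF-7 (edgeR adjusted p 2.65e-47, 0.00569 and 4.06e-10). MCM7 shares 8.94% of its exon bases with a gene on the other strand, so its values are uncertain to that extent.

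CDC6, the ATPase that brings the helicase to ORC, was the licensing factor most lowered by GNF-7 at both times (GRCh38 chr17:40287633-40304657). CDC6 was at 123, 124 and 122 CPM in cycling libraries and 14.9, 13.2 and 16.9 in senescent vehicle at 6 h, and GNF-7 at 6 h left 9.50, 11.7 and 10.8 CPM. By 24 h it was at 17.4, 14.4 and 15.4 CPM in vehicle and 5.44, 6.40 and 5.94 with GNF-7, and neither pair of groups overlapped. The log2 fold changes of CDC6 were -3.04 in senescence, -0.49 at 6 h and -1.41 at 24 h.

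ORC6, a small subunit of the origin recognition complex, had the smallest fall of the group in senescence, from 44.1, 41.6 and 44.3 to 12.6, 12.8 and 11.7 CPM (log2 fold change -1.81, SE 0.081, edgeR adjusted p 3.98e-29). With GNF-7 it was not called at 6 h (11.5, 10.6 and 11.1 CPM, adjusted p 0.152 by edgeR) and fell at 24 h from 11.5, 12.7 and 12.5 to 5.28, 5.98 and 6.87 CPM (log2 fold change -1.02). ORC1, the largest ORC subunit, was at 38.0, 36.5 and 38.1 CPM in cycling libraries and 6.36, 5.81 and 6.21 CPM in senescent vehicle at 6 h. It went from 4.85, 5.50 and 3.71 CPM in vehicle at 24 h to 2.20, 1.98 and 1.29 CPM with GNF-7 (log2 fold change -1.36). Each of these pairs of groups was apart.

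CDT1, which loads the helicase with CDC6, and GMNN, the geminin that blocks CDT1, act against each other in licensing. Only their RNA was measured here. CDT1 was at 71.3, 71.5 and 69.0 CPM in cycling libraries, 13.9, 16.4 and 13.2 in senescent vehicle at 6 h and 9.53, 13.2 and 13.8 with GNF-7 at 6 h. The 6 h groups overlapped, and the change was not called (log2 fold change -0.25, SE 0.1, edgeR adjusted p 0.0542). At 24 h CDT1 was at 15.3, 12.3 and 13.1 CPM in vehicle and 5.31, 6.33 and 6.51 with GNF-7, with no overlap (log2 fold change -1.17, SE 0.12, edgeR adjusted p 1.81e-10). GMNN was at 63.7, 61.5 and 62.6 CPM in cycling libraries and 17.4, 13.9 and 16.9 in senescent vehicle at 6 h. At 24 h GMNN was at 14.4, 15.2 and 16.3 CPM in vehicle and 11.5, 10.7 and 11.0 with GNF-7 (log2 fold change -0.47, SE 0.083, edgeR adjusted p 1.98e-06). The log2 ratio of CDT1 to GMNN counts within a library was -0.17 ± 0.229 (SD, n = 3) in vehicle and -0.87 ± 0.205 with GNF-7 at 24 h. Those libraries did not overlap, and the two-sided exact permutation p was 0.1, the smallest that 3 against 3 libraries allow (adjusted 0.167 over 20 ratio tests). In senescence the ratio went from 0.17 to -0.15 and the groups overlapped.

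**Figure D2:**
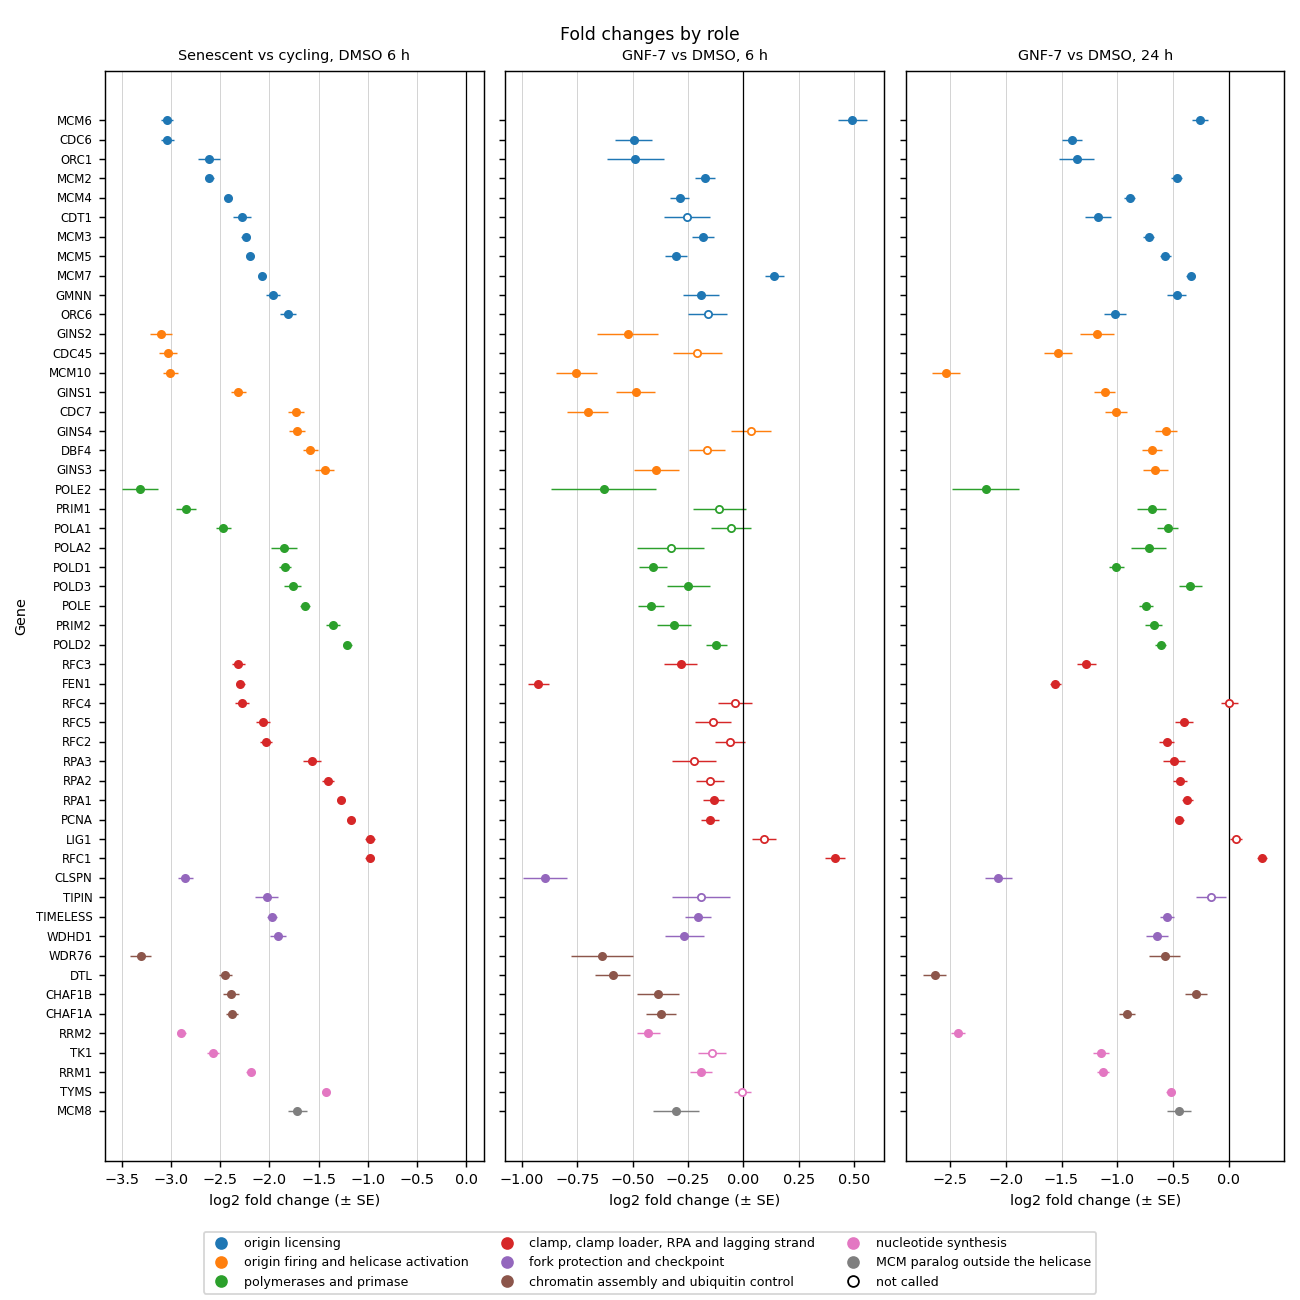
Log2 fold change of each gene with its SE (bars), coloured by role, in senescence (left), GNF-7 at 6 h (middle) and GNF-7 at 24 h (right), each panel with its own axis; open points were not called. Each point of the left panel is below 0, MCM6, RFC1 and MCM7 are the filled points above 0 in the middle panel, and RFC1 is the filled point above 0 on the right.

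The 6 helicase subunits, which form a ring with 1 copy of each, were compared per length of exon. This length takes all annotated exons of a gene together, 7338 bases for MCM5 and 3650 for MCM3. Which transcripts these cells make was not measured. Here and below, levels per kb of different genes therefore depend on the annotation, while changes of 1 gene between groups do not. In cycling cells MCM7 was the highest at 103 ± 2.15 CPM per kb (SD, n = 3) and MCM5 the lowest at 32.2 ± 0.703, a ratio of 3.19. In senescent vehicle cells at 6 h MCM6 was the lowest at 5.06 ± 0.584 CPM per kb and MCM7 the highest at 24.4 ± 0.385, a ratio of 4.82. The order of the others, from MCM4 through MCM2 and MCM3 to MCM7, was the same in the 5 groups, while MCM5 and MCM6 changed places. MCM5 was the lower of these in cycling cells and with GNF-7 at 6 h, and MCM6 in the other groups. MCM2 and MCM3 did not differ beyond their spread in cycling cells (69.8 ± 0.207 and 70.0 ± 1.87 CPM per kb), nor did MCM4 and MCM5 after 24 h of GNF-7 (4.74 ± 0.207 and 4.51 ± 0.115). MCM2 shares 23.6% of its exon bases with a gene on the other strand.

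**Figure D3:**
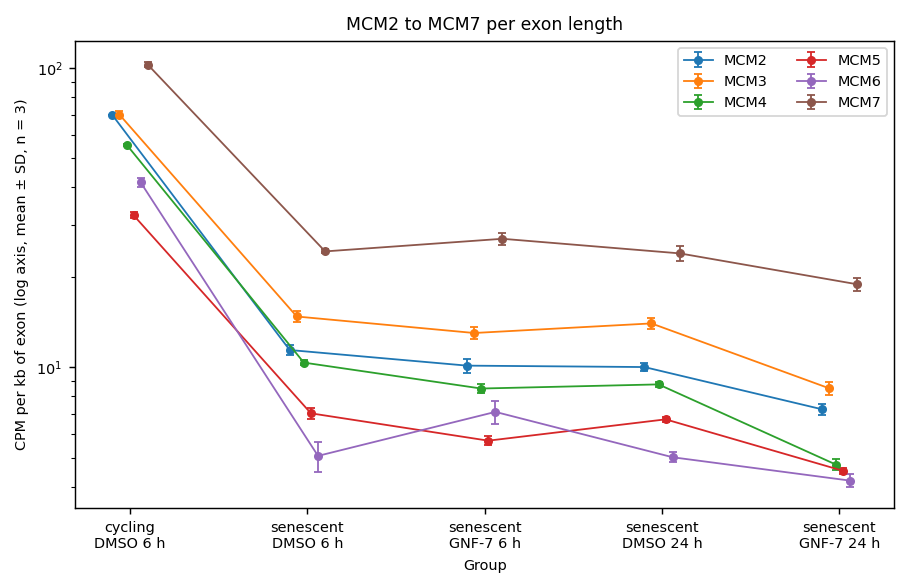
CPM per kb of exon (log axis) of MCM2 to MCM7 in the 5 groups, points at the mean of 3 libraries with bars of 1 SD; lines join the points of a gene and carry no time course. The line of MCM6 drops below the others in senescent vehicle cells, rises above MCM5 at 6 h of GNF-7 and is the lowest again at 24 h.

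The factors that fire origins and turn the helicase on fell in senescence in 8 of 8 cases, each at least 2-fold. With GNF-7 5 of 8 were lower at 6 h and 8 of 8 at 24 h, 5 of them at least 2-fold. MCM10, which is needed to activate the loaded helicase (GRCh38 chr10:13161554-13211104), had the largest fall of this group under GNF-7. It was at 94.6, 96.7 and 97.3 CPM in cycling libraries and 11.8, 11.2 and 12.9 in senescent vehicle at 6 h. GNF-7 at 6 h left 6.35, 8.43 and 6.55 CPM, below each vehicle library (log2 fold change -0.76, SE 0.092, edgeR adjusted p 4.62e-10). At 24 h MCM10 was at 10.1, 9.63 and 9.25 CPM in vehicle and 1.97, 1.62 and 1.39 with GNF-7 (log2 fold change -2.54, SE 0.13, edgeR adjusted p 1.33e-26). The mean of MCM10 with GNF-7 at 24 h was 1.73% of its cycling mean, the lowest of the 52 genes. Its fold change was 30th from the lowest of the 18563 fold changes at 24 h.

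GINS2, a subunit of the GINS complex of the active helicase, had the largest fall of the firing factors in senescence, from 61.8, 64.1 and 67.6 to 6.72, 9.28 and 6.49 CPM (log2 fold change -3.10, SE 0.11, edgeR adjusted p 3.1e-22). GINS3, another subunit of GINS, had the smallest, from 26.9, 29.2 and 31.7 to 9.93, 12.0 and 10.4 CPM (log2 fold change -1.44, SE 0.094, edgeR adjusted p 2.28e-21). Per kb of exon the GINS subunits spanned 3.44-fold in cycling cells and 1.46-fold in senescent vehicle cells at 6 h, with GINS3 lowest in both. GINS4 had the highest fold change of the firing factors under GNF-7. It was at 11.6, 14.1 and 12.0 CPM in vehicle and 12.9, 13.2 and 12.7 with GNF-7 at 6 h, which overlapped (log2 fold change 0.03, not called). At 24 h GINS4 was at 9.67, 10.2 and 9.44 and 5.68, 6.59 and 7.54 CPM (log2 fold change -0.56, SE 0.1, edgeR adjusted p 2.47e-06). GINS3 and GINS4 share 10.9% and 23.6% of their exon bases with genes on the other strand.

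CDC45, which with GINS and MCM2 to MCM7 forms the active helicase, was at 63.5, 55.0 and 56.3 CPM in cycling libraries and 6.95, 7.48 and 6.97 in senescent vehicle at 6 h. It was not called at 6 h of GNF-7 (6.39, 6.20 and 5.95 CPM, edgeR adjusted p 0.131). At 24 h CDC45 went from 8.07, 5.78 and 8.13 CPM in vehicle to 2.27, 2.76 and 2.56 CPM (log2 fold change -1.53, SE 0.13, edgeR adjusted p 2.9e-16), and the difference between the effects at 24 h and 6 h was -1.32 on the log2 scale. CDC7, the kinase that triggers firing, was lower at both times. CDC7 was at 15.4, 12.9 and 12.2 CPM in vehicle and 8.30, 8.30 and 8.24 with GNF-7 at 6 h, and at 12.1, 11.2 and 13.1 and 6.11, 6.20 and 5.74 CPM at 24 h. Its log2 fold changes of -0.70 and -1.01 had a difference that was not called (-0.31, edgeR adjusted p 0.0791). DBF4, the activating partner of CDC7, was not called at 6 h (-0.16) and fell at 24 h (-0.69).

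DNA polymerases and primase fell in 9 of 9 cases in senescence, each at least 2-fold, and in 9 of 9 after 24 h of GNF-7. At 6 h 6 of 9 were lower. POLE2, the second subunit of the leading strand polymerase epsilon, had the largest fall of the 52 genes in senescence (GRCh38 chr14:49643555-49688422). It was at 14.4, 15.1 and 18.1 CPM in cycling libraries and 1.72, 1.80 and 1.25 in senescent vehicle at 6 h (log2 fold change -3.32, SE 0.18, edgeR adjusted p 3.64e-25). GNF-7 at 6 h left 1.17, 1.13 and 0.795 CPM (log2 fold change -0.63, SE 0.24, edgeR adjusted p 0.029). At 24 h POLE2 was at 1.37, 1.23 and 1.97 CPM in vehicle and 0.200, 0.260 and 0.531 with GNF-7, or 43, 35 and 51 against 6, 8 and 16 counts (log2 fold change -2.18, SE 0.3, edgeR adjusted p 6.79e-09). The groups did not overlap in any of the 3 comparisons, and the counts at 24 h were the lowest of the 52 genes, and this fold change had the largest SE of the 52.

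POLD2, a small subunit of the lagging strand polymerase delta, had the smallest fall of the polymerases in senescence, from 152, 149.7 and 157 to 68.9, 63.8 and 65.5 CPM (log2 fold change -1.21, SE 0.046, edgeR adjusted p 7.26e-33). POLD3, another delta subunit, had the smallest at 24 h of GNF-7, from 10.3, 9.38 and 8.82 to 8.35, 6.85 and 7.27 CPM (log2 fold change -0.35, SE 0.1, edgeR adjusted p 0.00284). The catalytic subunit POLD1 fell more. POLD1 was at 117, 114 and 114 CPM in cycling libraries, 34.6, 33.6 and 34.6 in vehicle at 24 h and 16.0, 19.5 and 15.5 with GNF-7 at 24 h (log2 fold change -1.01 at 24 h). POLD1 shares 8.64% of its exon bases with another gene on the same strand.

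POLA1, the catalytic subunit of polymerase alpha, which extends the primers that primase makes, was not called at 6 h of GNF-7. POLA1 was at 10.1, 12.0 and 11.2 CPM in vehicle and 11.2, 9.46 and 11.4 with GNF-7, which overlapped (log2 fold change -0.06, SE 0.09, edgeR adjusted p 0.659). At 24 h it fell from 11.4, 12.8 and 12.0 to 9.25, 7.99 and 7.47 CPM (log2 fold change -0.55, SE 0.094, edgeR adjusted p 8.1e-07). PRIM1, the catalytic primase subunit, fell from 49.6, 50.3 and 55.5 CPM to 7.42, 6.76 and 7.39 CPM in senescence, and its partner PRIM2 from 43.5, 45.9 and 49.8 to 18.0, 18.5 and 18.0. The log2 fold changes were -2.85 for PRIM1 and -1.35 for PRIM2. Per kb of exon, PRIM1 was above PRIM2 in cycling cells (21.3 ± 1.32 and 9.94 ± 0.677 CPM per kb) and below it in senescent vehicle cells at 6 h (2.95 ± 0.153 and 3.89 ± 0.0620). POLA2 and PRIM1 share 35.1% and 16.2% of their exon bases with other genes on the same strand, so their values are uncertain.

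The clamp, its loader, the single strand binding complex RPA and the enzymes that finish the lagging strand fell in 11 of 11 cases in senescence, 9 of them at least 2-fold, with a median log2 fold change of -1.57. GNF-7 left 4 of 11 lower and 1 higher at 6 h, where 21.4% and 17.9% of all genes were. At 24 h 8 were lower, 1 higher and 2 not called, where 29.7% of all genes were lower and 29.3% higher. FEN1, the nuclease that trims the flaps of Okazaki fragments (GRCh38 chr11:61792637-61797244), was the most changed of them under GNF-7. FEN1 was at 293, 306 and 293 CPM in cycling libraries, 62.0, 60.2 and 59.8 in senescent vehicle at 6 h and 31.3, 32.0 and 32.4 with GNF-7 at 6 h. Its fall at 6 h was the largest of the 52 genes (log2 fold change -0.93, SE 0.049, edgeR adjusted p 8.02e-25). At 24 h FEN1 was at 57.8, 57.9 and 63.3 CPM in vehicle and 20.9, 20.7 and 19.3 with GNF-7 (log2 fold change -1.56, SE 0.052, edgeR adjusted p 1.92e-35). LIG1, the ligase that seals the same fragments, was not called under GNF-7. LIG1 was at 98.3, 99.2 and 96.5 CPM in cycling libraries and 49.9, 51.1 and 47.8 in senescent vehicle at 6 h (log2 fold change -0.98, SE 0.052, edgeR adjusted p 1.39e-25). Its groups overlapped under GNF-7 at 6 h (48.5, 55.2 and 55.0 CPM) and at 24 h (47.1, 52.1 and 46.7 CPM in vehicle, 47.8, 53.8 and 51.2 with GNF-7), with log2 fold changes of 0.09 and 0.07. The filter at a mean of 5 CPM called LIG1 higher at both times, at 0.15 and 0.17.

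RFC1, the large subunit of the clamp loader (GRCh38 chr4:39287456-39366375), was the 1 gene of the 52 called higher at both times of GNF-7. It was at 127, 142 and 138 CPM in cycling libraries and 68.1, 70.3 and 67.9 in senescent vehicle at 6 h, its fall in senescence being the smallest of the 52 (log2 fold change -0.98, SE 0.045, edgeR adjusted p 9.89e-29). GNF-7 at 6 h brought it to 93.8, 87.6 and 93.9 CPM, above each vehicle library and below each cycling library (log2 fold change 0.42, SE 0.045, edgeR adjusted p 1.38e-11). At 24 h RFC1 was at 64.0, 61.8 and 61.7 CPM in vehicle and 79.2, 76.7 and 74.7 with GNF-7 (log2 fold change 0.30, SE 0.046, edgeR adjusted p 1.03e-07). The difference between its effects at 24 h and 6 h was not called (-0.12, edgeR adjusted p 0.176).

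The small subunits of the same loader had other calls. RFC3 had the largest fall of the clamp group in senescence, from 102, 99.3 and 101 to 19.0, 20.2 and 21.5 CPM (log2 fold change -2.31, SE 0.065, edgeR adjusted p 9.01e-40), and fell again at 24 h of GNF-7 from 19.7, 19.1 and 17.8 to 7.82, 7.11 and 8.47 CPM (log2 fold change -1.28, SE 0.082, edgeR adjusted p 2.81e-21). RFC4 was not called at either time, with 16.3, 18.0 and 18.3 CPM in vehicle and 18.1, 16.9 and 17.8 with GNF-7 at 24 h (log2 fold change 0.0059, a sign that changes with the processing). RFC2 and RFC5 were called lower at 24 h alone (-0.56 and -0.40). Per kb of exon the lowest and the highest RFC subunit differed 2.19-fold in cycling cells, from RFC5 to RFC2, and 4.22-fold after 24 h of GNF-7, from RFC3 to RFC1.

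PCNA, the clamp itself, was the highest of the 52 genes per kb of exon in each of the 5 groups, from 75.4 ± 3.38 CPM per kb after 24 h of GNF-7 to 207 ± 5.76 in cycling cells. PCNA was at 296, 313 and 307 CPM in cycling libraries and 132, 140.3 and 135 in senescent vehicle at 6 h (log2 fold change -1.17, SE 0.04, edgeR adjusted p 2.59e-35). By 24 h it was at 157, 144 and 152 CPM in vehicle and 117, 109 and 108 with GNF-7 (log2 fold change -0.44, SE 0.041, edgeR adjusted p 9.78e-15). PCNA fell while RFC1 rose, and the log2 ratio of PCNA to RFC1 counts went from 1.27 ± 0.041 in vehicle to 0.53 ± 0.029 with GNF-7 at 24 h. The ratio did not overlap between those groups (exact permutation p 0.1, adjusted 0.167). RPA1, RPA2 and RPA3, which coat single stranded DNA, had log2 fold changes of -1.27, -1.41 and -1.57 in senescence. At 24 h of GNF-7 they were -0.37, -0.44 and -0.49, each called.

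**Figure D4:**
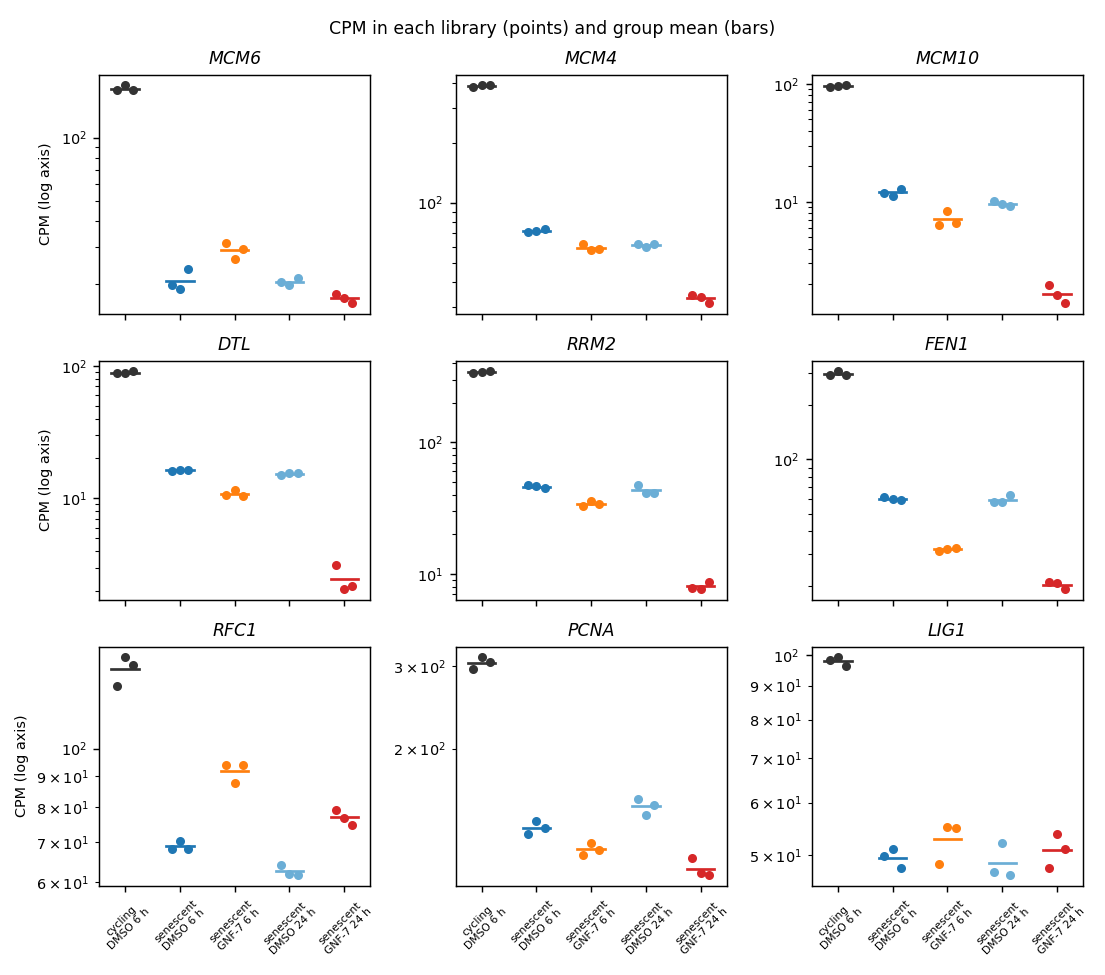
CPM of 9 genes in each library (points, log axes) with the group mean (bars), 3 libraries in each of 5 groups. MCM10, DTL, RRM2 and FEN1 are lowest with GNF-7 at 24 h, MCM6 and RFC1 are above vehicle at 6 h of GNF-7, and the senescent groups of LIG1 overlap.

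Fork protection factors fell in 4 of 4 cases in senescence, each at least 2-fold, and GNF-7 lowered 3 of 4 at each time. CLSPN, the claspin that passes the checkpoint signal from stalled forks to CHK1 (GRCh38 chr1:35720218-35769967), had the largest fall in the 3 comparisons. CLSPN was at 85.2, 83.1 and 86.7 CPM in cycling libraries, 12.9, 9.79 and 12.7 in senescent vehicle at 6 h and 6.61, 6.44 and 5.89 with GNF-7 at 6 h (log2 fold change -0.90, SE 0.099, edgeR adjusted p 2.67e-11). At 24 h it was at 9.67, 9.35 and 11.6 CPM in vehicle and 2.50, 2.05 and 2.72 with GNF-7 (log2 fold change -2.07, SE 0.12, edgeR adjusted p 9.88e-23). None of these pairs of groups overlapped. WDHD1, which ties polymerase alpha to the helicase, had the smallest fall of the 4 in senescence, from 45.5, 52.9 and 49.4 to 13.3, 13.5 and 12.5 CPM (log2 fold change -1.92, SE 0.081, edgeR adjusted p 1.32e-30). TIMELESS and TIPIN form 1 complex that steadies the fork, and they differed in their calls under GNF-7. TIMELESS was at 28.1, 29.2 and 30.5 CPM in vehicle and 20.0, 19.6 and 20.0 with GNF-7 at 24 h (log2 fold change -0.55, SE 0.061, edgeR adjusted p 5.67e-12). TIPIN was at 4.69, 4.94 and 5.57 and 4.84, 4.32 and 4.42 CPM, which overlapped (log2 fold change -0.16, SE 0.14, edgeR adjusted p 0.323), and 21% of its exon bases lie in another gene on the same strand, RPL9P25. The difference between the effects on TIMELESS and TIPIN was not tested.

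Among the genes for chromatin assembly and ubiquitin control 4 of 4 were lower in the 3 comparisons. DTL, which in S phase hands CDT1 to a ubiquitin ligase for destruction (GRCh38 chr1:212035553-212107400), had the largest fall of the 52 genes at 24 h of GNF-7. DTL was at 88.2, 88.2 and 90.7 CPM in cycling libraries, 16.2, 16.4 and 16.4 in senescent vehicle at 6 h and 10.6, 11.5 and 10.4 with GNF-7 at 6 h (log2 fold change -0.59, SE 0.08, edgeR adjusted p 8.06e-09). By 24 h it was at 14.9, 15.6 and 15.6 CPM in vehicle and 3.14, 2.08 and 2.19 with GNF-7, the groups being far apart (log2 fold change -2.64, SE 0.1, edgeR adjusted p 1.57e-31). Of 18563 genes tested DTL had the 25th lowest fold change at 24 h, and the difference between its effects at 24 h and 6 h was the largest of the 52 (-2.05). WDR76 had the largest fall of the 4 in senescence, from 45.2, 44.5 and 43.0 to 5.26, 3.66 and 4.47 CPM (log2 fold change -3.31, SE 0.11, edgeR adjusted p 3.08e-36), and also at 6 h of GNF-7, where 2.43, 2.95 and 3.21 CPM remained (log2 fold change -0.64, SE 0.14, edgeR adjusted p 0.000143). At 24 h WDR76 was at 4.15, 4.44 and 4.99 CPM in vehicle and 2.81, 3.35 and 2.92 with GNF-7 (log2 fold change -0.58).

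CHAF1A and CHAF1B are subunits of CAF-1, which places histones behind the fork. CHAF1A was at 107, 105 and 107 CPM in cycling libraries, 20.9, 20.4 and 20.0 in senescent vehicle at 6 h and 14.8, 16.6 and 16.0 with GNF-7 at 6 h. At 24 h CHAF1A was at 19.9, 20.3 and 20.7 CPM in vehicle and 11.5, 10.0 and 10.9 with GNF-7 (log2 fold change -0.91, SE 0.072, edgeR adjusted p 2.04e-17). CHAF1B was at 9.09, 10.4 and 9.05 and 7.82, 8.02 and 7.47 CPM (log2 fold change -0.29, SE 0.097, edgeR adjusted p 0.00766), a call that was lost without DMSO 24 h replicate 2 (-0.23, edgeR adjusted p 0.0657). In senescence the log2 fold changes of CHAF1A and CHAF1B were -2.38 and -2.39.

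The nucleotide synthesis genes fell in 4 of 4 cases in senescence and in 4 of 4 after 24 h of GNF-7, 3 of them at least 2-fold. At 6 h 2 of 4 were lower, where 21.4% of all genes were. RRM2 encodes the small subunit that limits ribonucleotide reductase in S phase (GRCh38 chr2:10120698-10131419), and RRM1 the large subunit with the active site. RRM2 was at 338, 345 and 346 CPM in cycling libraries and 47.1, 46.3 and 44.9 in senescent vehicle at 6 h (log2 fold change -2.90, SE 0.047, edgeR adjusted p 4.73e-52). GNF-7 at 6 h left 33.0, 35.5 and 34.2 CPM, below each vehicle library (log2 fold change -0.43, SE 0.051, edgeR adjusted p 1.67e-10). At 24 h RRM2 was at 47.2, 41.3 and 41.4 CPM in vehicle and 7.82, 7.70 and 8.60 with GNF-7 (log2 fold change -2.43, SE 0.063, edgeR adjusted p 5.7e-41), the 38th lowest of 18563 fold changes. RRM2 shares 20.2% of its exon bases with another gene on the same strand.

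RRM1 was at 267, 276 and 274 CPM in cycling libraries, 55.4, 57.2 and 55.0 in vehicle at 24 h and 28.5, 24.1 and 24.2 with GNF-7 at 24 h (log2 fold change -1.13, SE 0.052, edgeR adjusted p 5.72e-28). The subunits were thus at like levels per kb of exon in cycling cells, 65.2 ± 1.18 CPM per kb for RRM1 and 64.4 ± 0.829 for RRM2, and 4.06-fold apart after 24 h of GNF-7. The log2 ratio of RRM2 to RRM1 counts within a library averaged 0.33 ± 0.012 over the cycling libraries and -0.37 ± 0.061 over senescent vehicle libraries at 6 h (SD, n = 3 each). With GNF-7 it was -0.61 ± 0.105 at 6 h, and at 24 h it was -0.37 ± 0.124 in vehicle and -1.67 ± 0.187 with GNF-7. None of the 3 comparisons overlapped (exact permutation p 0.1 each, adjusted 0.167).

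RRM2B, which is not among the 52, encodes the small subunit that p53 induces and that works outside S phase. It went the other way in senescence, from 114, 119.6 and 121 to 209, 218 and 216 CPM (log2 fold change 0.86, SE 0.039, edgeR adjusted p 3.16e-29). RRM2B was at 272, 257 and 254 CPM with GNF-7 at 6 h (log2 fold change 0.29, SE 0.037, edgeR adjusted p 2.93e-09), and at 24 h it was at 218, 219.6 and 212 CPM in vehicle and 231, 223 and 221 with GNF-7 (not called, edgeR adjusted p 0.203). The log2 ratio of RRM2 to RRM2B counts went from 1.54 in cycling cells to -2.22 in senescent vehicle at 6 h, and from -2.33 to -4.81 with GNF-7 at 24 h. Each pair was apart at the smallest exact p of 0.1.

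TK1, the thymidine kinase of S phase, fell in senescence from 132, 139 and 136 to 24.0, 22.1 and 22.2 CPM and at 24 h of GNF-7 from 24.0, 23.8 and 22.9 to 10.9, 10.2 and 10.8 CPM (log2 fold changes -2.57 and -1.15). At 6 h of GNF-7 TK1 was at 21.2, 18.9 and 21.8 CPM and was not called (-0.14, edgeR adjusted p 0.0699). TYMS, which makes thymidylate, had the smallest fall of these genes in senescence, from 331, 344 and 343 to 126, 126 and 126 CPM (log2 fold change -1.43, SE 0.039, edgeR adjusted p 1.98e-40). Its libraries at 6 h of GNF-7 were at 124, 124 and 129 CPM and overlapped the vehicle libraries (-0.0047, a sign that changes with the scaling). At 24 h TYMS was at 139, 138 and 142 CPM in vehicle and 104, 93.2 and 94.8 with GNF-7 (log2 fold change -0.52, SE 0.04, edgeR adjusted p 7.94e-18). TYMS shares 46.6% of its exon bases with genes on the other strand, so its values are uncertain.

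MCM8, a relative of the helicase subunits that acts in recombination with MCM9, fell from 33.1, 31.0 and 32.1 CPM in cycling libraries to 9.17, 9.00 and 11.1 CPM in senescent vehicle at 6 h (log2 fold change -1.72, SE 0.094, edgeR adjusted p 6.18e-25). At 24 h MCM8 was at 8.33, 8.99 and 7.93 CPM in vehicle and 6.35, 6.43 and 5.74 with GNF-7 (log2 fold change -0.45, SE 0.11, edgeR adjusted p 0.000369). The log2 ratio of MCM8 to the mean of MCM2 to MCM7 went from -3.19 ± 0.067 (SD, n = 3) to -2.48 ± 0.153 in senescence. The groups did not overlap (exact permutation p 0.1, adjusted 0.167).

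The effect of GNF-7 itself was tested between 24 h and 6 h. It was lower at 24 h for 38 of the 52 genes, where 18% of all genes tested were, and higher for 0, where 12.8% were, and 14 were not called. At an unadjusted p under 0.05 edgeR had it lower for 41 and higher for 0, and DESeq2 called it higher for 0. For 7 genes (DTL, RRM2, MCM10, POLE2, CDC45, CLSPN and TK1) the difference was at least 2-fold, against 2.06% of all genes. For DTL it was -2.05 (edgeR adjusted p 1.06e-19) and for RRM2 -2.00 (edgeR adjusted p 5.19e-29) on the log2 scale. At the other end CHAF1B had a difference of 0.09 and WDR76 of 0.06, neither of them called. By pairs of calls, 32 genes were lower at both times, 14 were lower at 24 h alone, MCM6 and MCM7 were higher and then lower, RFC1 was higher at both and LIG1, RFC4 and TIPIN were called at neither. WDHD1 lost its call of this difference without DMSO 6 h replicate 3 (-0.35), GNF-7 6 h replicate 1 (-0.28), DMSO 24 h replicate 3 (-0.35) or GNF-7 24 h replicate 2 (-0.33).

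**Figure D5:**
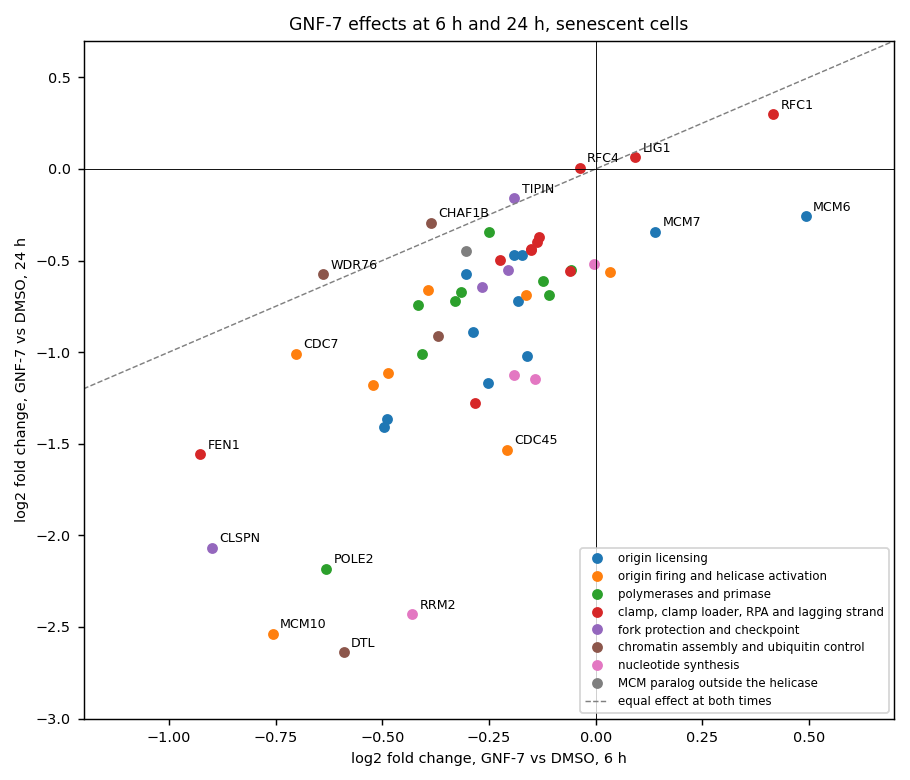
Log2 fold change by GNF-7 at 6 h (x axis) and at 24 h (y axis) for the 52 genes, coloured by role, with the line of equal effects dashed. Most points are below the line, DTL, MCM10 and RRM2 farthest down, MCM6 and MCM7 are right of 0 and below it, and RFC1 is above 0 on both axes.

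Genes ordered alike to some degree in comparisons that share no library. Across the 52 genes the log2 fold changes of GNF-7 at 6 h and at 24 h had a Pearson r of 0.70 and a Spearman rho of 0.69, beside 0.62 and 0.61 over the 18563 genes. Senescence and GNF-7 at 24 h had an r of 0.58 and a rho of 0.53, beside 0.41 and 0.40 over the 18563 genes. Genes of 1 library are not independent replicates, and these values are a description.

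Other genes of replication gave a more mixed picture. Of 57 further replication proteins 56 were tested, and in senescence 46 were lower, 4 higher and 6 not called, with a median log2 fold change of -0.95. The histone chaperone ASF1B (-2.83) and the chromatin reader UHRF1 (-2.74), which maintains DNA methylation behind the fork, were among the lowest. POLD4, the smallest subunit of polymerase delta, was higher (6.48 CPM in cycling cells, 14.9 in senescent vehicle, log2 fold change 1.20), and so was the lesion bypass polymerase POLH (0.70). At 24 h of GNF-7 36 of the 56 were lower and 10 higher, where 29.7% and 29.3% of all genes were. UHRF1 was at -2.23 and RAD17, which loads the checkpoint clamp, at 0.49. DNA2, a nuclease of Okazaki fragments, was lower at 6 h (-0.63) and higher at 24 h (0.28).

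Of 49 further genes of nucleotide synthesis and salvage, 41 were lower and 5 higher in senescence, with a median of -0.67. The nucleoside transporter SLC29A1 was among the lowest (130.3 to 33.0 CPM, -1.98), and ADSS1, an adenylosuccinate synthase, was the highest (2.49 to 12.1 CPM, 2.27). At 24 h of GNF-7 36 of the 49 were lower and 2 higher, and the mitochondrial thymidine kinase TK2 was higher at 0.64 where TK1 was at -1.15. CTPS1, which makes CTP, was lower at -1.22, and SLC29A1 at -1.24.

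Of 25 mitotic genes 25 were lower in senescence (median -1.68) and 25 at 24 h of GNF-7 (median -1.18), 20 being lower at 6 h. Their summed level was 4658 CPM in cycling cells and 1410 in senescent vehicle cells at 6 h, and at 24 h it was 1249 in vehicle and 565 with GNF-7. The last list held 24 genes of the E2F and RB axis, namely the E2F, DP and RB families, LIN9, LIN54, MYBL2, FOXM1, the cyclins CCND1, CCNE1 and CCNE2, the kinases CDK2 and CDK4, CDKN1A and CDC25A. Of these 20 were lower and 2 higher in senescence, where 34.4% of all genes were lower. At 24 h of GNF-7 16 were lower and 5 higher, where 29.7% and 29.3% of all genes were. MYBL2, the B-Myb that binds the MuvB complex at cell cycle promoters, was the lowest of these in senescence (-3.37) and at -2.29 at 24 h of GNF-7. CDKN1A, the p53 target that inhibits CDK2, was higher in senescence (186 to 501 CPM, 1.43). E2F7, a repressor of E2F targets, was higher with GNF-7 at 6 h (96.7 to 159.6 CPM, 0.72) and at 24 h (97.9 to 195 CPM, 1.00). E2F8, another member of the E2F family, went the other way. It was at 2.35, 2.43 and 2.29 CPM in vehicle and 1.43, 1.75 and 1.78 with GNF-7 at 6 h. At 24 h E2F8 was at 2.33, 2.96 and 3.10 CPM in vehicle and 0.334, 0.844 and 0.332 with GNF-7.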

How the data were processed

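Per the labels' protocols, total RNA was made into libraries with a stranded mRNA kit. The authors deposited raw counts per Ensembl gene for 15 libraries. The submitters' processing notes name bcl2fastq 2.20.0.422, STAR 2.7.9a, featureCounts 1.5.1 and GRCh38. The annotation release and the strand setting of counting are not given in the sources used here, so genes that overlap others are uncertain. Of 60673 rows, 3 of a broken entry of ANK2 were left out (at most 0.00475% of a library). Of 60670 genes, 60400 (99.55%) had a symbol in the name table. 0 columns lacked a library.

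Counts were tested with edgeR 4.0.16 (R 4.3.3) by the quasi-likelihood test after filterByExpr and TMM scaling, in 1 fit of 15 libraries by group, without a replicate block, with Benjamini-Hochberg adjustment over 18563 genes. The biological coefficient of variation was 4.64%. CPM uses TMM-scaled library sizes; CPM per kb divides by exon length in GENCODE 29, which also gave coordinates. Ratios add 0.5 counts and were compared by a two-sided exact permutation test. Alternatives were RLE, total counts, TMM without mitochondrial genes, no filter, a filter at 5 CPM, DESeq2 1.42.0, only the groups compared, a replicate block and leaving out each library. On simulated counts for GNF-7 at 24 h (17943 genes), 187 of 200 genes changed 2-fold were recovered with 16 false calls. The simulation changed no other gene and drew the libraries independently, whereas 10940 of 18563 genes were called in the data at 24 h. It therefore does not give the rate of false calls in the data.

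Members, lists, tests and alternatives were chosen with earlier results of these data known. Values of the libraries compared are given, per role and comparison, for most genes with the lowest or highest fold change. Library values are also given for genes called against the majority and for most of the largest differences between times. From each further list, genes among the 2 lowest or 2 highest called at a mean of at least 5 CPM may be named, with RRM2B, and the others named were chosen after their values were seen. Libraries of a group were compared pairwise by chi-square, and each pair differed by more than sampling noise. The replicate numbers in the labels were checked for pairing by the correlation of deviations from the group means. It was over 0.1 for each of the 3 same-numbered pairs of vehicle and GNF-7 at 24 h (0.11 to 0.154, other numbers -0.125 to 0.000315) and of GNF-7 at 6 h and 24 h (0.126 to 0.254), and not in the other 8 pairs of groups. The pairing at 24 h comes from these values alone, since the labels do not say what a number marks.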

Additional observations from a re-analysis of the deposited data

Results flagged for a closer look

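The effect of GNF-7 on senescent cells differed between 24 h and 6 h for 38 of the 52 genes, in each case lower at 24 h, by edgeR's interaction test (adjusted p under 0.05). The values below are differences of log2 fold changes, 24 h minus 6 h. Among licensing factors they were -0.875 for ORC1, -0.859 for ORC6, -0.913 for CDC6 and -0.917 for CDT1. For the helicase they were -0.294 for MCM2, -0.538 for MCM3, -0.602 for MCM4, -0.267 for MCM5, -0.75 for MCM6 and -0.481 for MCM7. Among firing factors they were -1.32 for CDC45, -0.522 for DBF4, -0.628 for GINS1, -0.658 for GINS2, -0.597 for GINS4 and -1.78 for MCM10. For polymerases and primase they were -0.491 for POLA1, -0.603 for POLD1, -0.487 for POLD2, -0.325 for POLE, -1.55 for POLE2, -0.581 for PRIM1 and -0.358 for PRIM2. The clamp group gave -0.292 for PCNA, -0.497 for RFC2, -0.993 for RFC3, -0.237 for RPA1, -0.286 for RPA2 and -0.63 for FEN1. Fork and chromatin factors gave -1.17 for CLSPN, -0.347 for TIMELESS, -0.378 for WDHD1, -0.541 for CHAF1A and -2.05 for DTL. Nucleotide synthesis genes gave -0.936 for RRM1, -2 for RRM2, -1.01 for TK1 and -0.515 for TYMS.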

How the results depend on the processing

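In senescence no gene of the 52 changed its call or direction in any alternative run. At 24 h of GNF-7 3 did: CHAF1B lost its call with the filter at 5 CPM (-0.192) and without DMSO 24 h replicate 2 (-0.229), LIG1 was called with that filter (0.167, so that 2 genes were called higher), and RFC4 changed sign without being called. RFC4 at 24 h was -0.00471 with scaling free of mitochondrial genes, -0.0177 with no filter, -0.00257 with DESeq2 and -0.0495 to 0.0315 without single libraries. The filter at 5 CPM kept 51 of the 52 genes and left 14 of them at least 2-fold lower at 24 h.

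At 6 h of GNF-7 17 genes changed. TYMS became 0.00417 with RLE, 0.00782 with total counts, 0.000954 without mitochondrial genes, 0.0481 with the filter at 5 CPM, 0.00328 with DESeq2, 0.00768 with only the groups compared and -0.025 to 0.0193 without single libraries. RFC4 became 0.0158 with the filter at 5 CPM. Without single libraries RFC4 ranged from -0.127 to 0.0586, GINS4 from -0.0222 to 0.124, POLA1 from -0.125 to 0.0332, PRIM1 from -0.228 to 0.0789 and RFC2 from -0.136 to 0.0141. The log2 ratio of CDT1 to GMNN then changed by -0.18 to 0.117 in place of -0.0755. Between the times in vehicle, total counts gave 24 genes lower and 0 higher, and leaving out single libraries 4 to 7 lower and 1 to 2 higher. There the ratio of CDT1 to GMNN then changed by -0.158 to 0.166 and that of RRM2 to RRM1 by -0.0684 to 0.0507. With total counts the median over all genes tested went from 0.0623 to 0.195 in senescence and from 0.00878 to -0.102 between the times in vehicle. The cause of these changes was not tested.

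With correlations over 0.1 in every same-numbered pair, the replicate numbers were followed in 2 of the 10 pairs of groups. These were vehicle and GNF-7 at 24 h, and GNF-7 at 6 h and 24 h. For GNF-7 at 6 h and vehicle at 24 h the same numbers gave 0.0509 to 0.175 and other numbers at most -0.00708. Over the 10 pairs of groups, correlations between libraries of the same number ran from -0.141 to 0.254, 12 of 30 were over 0.1, and a library correlated best with its own number in 28 of 60 cases. With a replicate block 7481 genes in place of 7286 were called at 6 h of GNF-7, and of the 52 genes 33 in place of 32 were lower (CDT1 at -0.254). The counts of the 52 genes called lower in the other comparisons were 52, 48, 38 and 8 with the block and without it. A block over the 24 h libraries alone, chosen after seeing the data, gave 48 lower and 1 higher of the 52 genes and changed no call among them.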
